A study of Mus musculus with 9 samples.

Results

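The genes described here are 10 members of the regulated peptide secretion pathway, picked by name out of the 49548 genes in the deposited tables: the granins Scg2, Chga and Chgb, the granin-like precursor Vgf, the vesicle proteins Scg3 and Scg5, the opioid precursor Penk, and the processing enzymes Pcsk1, Pcsk2 and Cpe. They were proposed with the difference between hTNFtg and WT cells in view, in which Scg2 has the largest fall of all genes past the study's rule, so their values in that comparison are a description and carry no test.

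The cells were synovial fibroblasts (SFs), the connective tissue cells that line the joint, cultured from the ankle joints of 8-week-old mice on a CBA C57BL/6J background and depleted of CD45+ leukocytes at passage 1. Of the 9 libraries, 3 came from WT SFs, 3 from untreated SFs of hTNFtg mice, which carry a human TNF transgene and develop arthritis, and 3 from hTNFtg SFs given infliximab, an antibody against human TNF, at 1 µg/mL for 48 hours. Untreated SFs are labelled as such, while the study's methods describe a vehicle. Each library was a 3′ mRNA library, in which a transcript gives reads near its 3′ end only, so that levels of different genes can be set side by side without a correction for length.

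Peptide hormones and neuropeptides are made as longer precursors, packed into dense core vesicles and cut inside them. Granins help to form these vesicles and are cut to peptides themselves. The convertases encoded by Pcsk1 and Pcsk2 cut at pairs of basic residues, and carboxypeptidase E, encoded by Cpe, then trims the basic residues left at the end of each peptide. The pathway is best known from neurons and endocrine cells, and Penk is also known to be transcribed in fibroblasts and other mesenchymal cells.

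Values are normalized counts, that is read counts which the authors normalized and then rounded. Scaling by 1 factor for each library was assumed here. This gave back 99.9% of the values in untreated hTNFtg replicate 1 and 99.8% in infliximab-treated replicate 1. In the other libraries 1 read is worth less than 1 normalized count, so any whole number is given back and the assumption is not checked. By the spacing of their values, 8 libraries held from 3829138 to 9015557 reads, and untreated hTNFtg replicate 1 held 613343. In that library 1 read is worth 6.23 normalized counts, and a listed 0 still allows up to 18.7 (3 reads), against 1.60 to 3.31 in the others.

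Of the members, 3 were well above these limits. The mean normalized count of Penk in WT SFs ranked 106th of all genes, that of Cpe 961st and that of Scg2 3587th. The group means of Vgf lay between 5.33 and 11.7, and Pcsk1, Pcsk2, Scg3, Scg5 and Chgb were listed at 6 or less. Chga was listed at 0 in all 9 libraries.

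**Figure D1:**
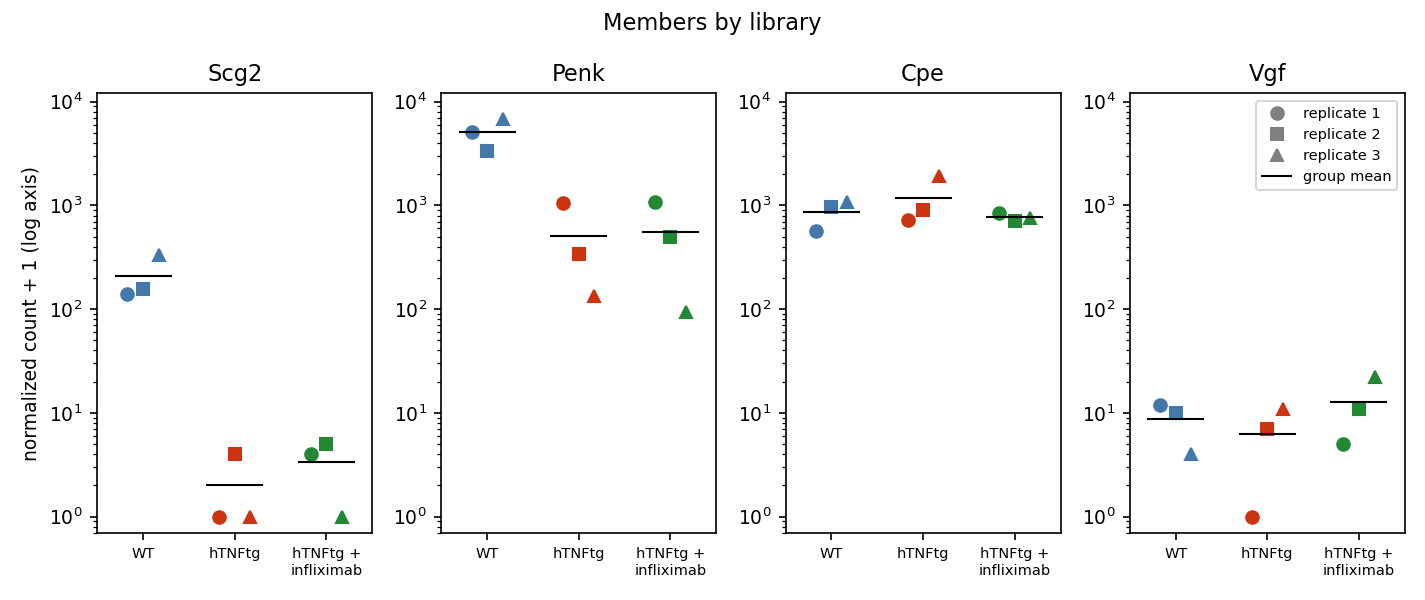
Normalized count + 1 on a log axis for Scg2, Penk, Cpe and Vgf in each library, by group, with circles, squares and triangles for replicates 1, 2 and 3 and a black line at the group mean. Scg2 and Penk are lower in all 6 hTNFtg libraries, with or without infliximab, than in any WT library, while Cpe and Vgf overlap between the groups.

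Scg2 encodes secretogranin II, the precursor of the peptide secretoneurin. The gene (ENSMUSG00000050711) lies at chr1:79434669-79440120 of mm10 on the minus strand. In WT SFs its normalized counts were 138, 156 and 331. In untreated hTNFtg SFs they were 0, 3 and 0, and in infliximab-treated hTNFtg SFs 3, 4 and 0. The listed values of WT and hTNFtg SFs did not overlap, and the lowest WT value was also above the 18.7 that the 0 in untreated hTNFtg replicate 1 allows. The means were 208 ± 106.6 (SD, n = 3), 1 ± 1.73 (SD, n = 3) and 2.33 ± 2.08 (SD, n = 3).

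In reads, the WT libraries together held 813 to 814 reads of Scg2 in 16035895, the untreated hTNFtg libraries 3 to 4 in 14418856 and the infliximab-treated ones 7 in 14057075, the ranges coming from the rounding of the values. Scaled to the reads of each group (RPM), Scg2 was 244 times as abundant in WT as in untreated hTNFtg SFs when 3 reads are counted (exact 95% interval 83.2 to 1186) and 183 times as abundant when 4 are counted (71.2 to 673). Against infliximab-treated SFs the ratio was 102 (49.3 to 254). These intervals cover counting error only, not the spread between cultures. On the log2(normalized count + 1) scale, which understates differences from values near 0, Scg2 was lower by 6.93 on the log2 scale in untreated hTNFtg than in WT SFs (standard error 0.71), and leaving out any 1 library gave log2 fold changes from -7.60 to -6.54. The value depends on the setting, from -7.66 with a pseudocount of 0.5 to -5.08 with a pseudocount of 5. Because the RNA is from bulk cultures, fewer Scg2-expressing cells and less Scg2 RNA per cell cannot be told apart.

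The promoter of Scg2 is shown because it holds TGACGTCA, the full cAMP response element. The 250 bases before the RefSeq start site, at chr1:79440027-79440276 of GRCm38.p6 (the mm10 build) on the minus strand, read 5′ to 3′, with the element in capitals, as follows:
Scg2 promoter: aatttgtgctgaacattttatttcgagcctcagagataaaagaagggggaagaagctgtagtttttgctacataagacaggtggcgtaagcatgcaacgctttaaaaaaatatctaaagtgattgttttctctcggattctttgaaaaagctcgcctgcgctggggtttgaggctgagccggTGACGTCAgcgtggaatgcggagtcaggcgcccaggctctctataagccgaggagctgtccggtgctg

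The element, which reads the same on both strands, began at position -68 from the RefSeq start site. The gene span given above begins further upstream, at 79440120, so by that annotation the element lies inside the gene. In windows of 250 bases before to 50 bases after the start, RefSeq promoters were available for 7 members, and 3 of them held it: Scg2, Chgb at -72 and Pcsk1 at -78. Of all 32851 mouse promoters in the same table, 588 (1.79%) held it. The 3 genes had very different levels in WT SFs, 208 normalized counts on average for Scg2 and 0 in every WT library for Chgb and Pcsk1. A match of letters is a description and not evidence of binding.

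Chga and Chgb encode chromogranins A and B, the most abundant granins of endocrine cells. Chga (chr12:102554969-102565027, plus strand) had no read in any library, which allows up to 0.187, 0.208 and 0.213 RPM over the WT, untreated and infliximab-treated groups. Chgb (chr2:132781278-132795079, plus strand) had 1 read in all, in infliximab-treated replicate 2. Vgf, a precursor of several neuroendocrine peptides (chr5:137026392-137033351, plus strand), had normalized counts of 11, 9 and 3 in WT, 0, 6 and 10 in untreated hTNFtg and 4, 10 and 21 in infliximab-treated hTNFtg SFs. These 3 groups overlapped. The log2 fold change of Vgf between untreated hTNFtg and WT SFs was -0.88 (standard error 1.04), and it moved to 0.16 without untreated hTNFtg replicate 1, the shallow library in which a 0 allows up to 18.7.

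Scg3, a sorting receptor that binds granins at the vesicle membrane (chr9:75643189-75684056, minus strand), had normalized counts of 3, 0 and 0 in WT, 0, 1 and 0 in untreated and 0 in all infliximab-treated SFs. Scg5 encodes 7B2, the chaperone that the Pcsk2 convertase needs to mature (chr2:113776362-113829121, minus strand). Its values were 1, 0 and 0 in WT, 0, 1 and 0 in untreated and 0, 1 and 3 in infliximab-treated SFs. Both genes were at the limit of detection, at 0 to 5 reads per group, and no difference between groups was detectable at this depth.

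Penk encodes proenkephalin, the precursor of the enkephalins, opioid peptides that act on the delta and mu receptors. The gene (ENSMUSG00000045573) lies at chr4:4133531-4138819 of mm10 on the minus strand. Its coding sequence is shown around the enkephalins because the cutting sites in it are what the processing enzymes below act on. The principal transcript of Penk in GENCODE encodes 7 enkephalin copies of 5 codons each, of which 6 spell Met-enkephalin and 1 spells Leu-enkephalin. Below, the enkephalin codons are in capitals and the 2 codons on each side are in lower case, 5′ to 3′ on the minus strand of GRCm38, read from the reference:
copy 1, chr4:4134328-4134354: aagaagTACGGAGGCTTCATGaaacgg
copy 2, chr4:4134307-4134333: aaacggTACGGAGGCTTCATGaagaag
copy 3, chr4:4134220-4134246: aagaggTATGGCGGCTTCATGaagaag
copy 4, chr4:4134067-4134093: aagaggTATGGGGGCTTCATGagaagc
copy 5, chr4:4133995-4134021: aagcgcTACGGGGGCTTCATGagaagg
copy 6, chr4:4133935-4133961: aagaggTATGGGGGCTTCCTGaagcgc
copy 7, chr4:4133842-4133868: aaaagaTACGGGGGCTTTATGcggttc

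A pair of codons for lysine or arginine stood before all 7 copies and on both sides of 5, copies 4 and 7 being the exceptions. Copy 6 is the Leu-enkephalin. Copies 1 and 2 share the pair between them.

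Penk had the highest level of the members in WT SFs, and Cpe had the higher mean in both hTNFtg groups. In WT SFs its normalized counts were 5079, 3371 and 6877. In untreated hTNFtg SFs they were 1059, 337 and 133, and in infliximab-treated hTNFtg SFs 1083, 500 and 93. The lowest WT library stood 3.18-fold above the highest untreated hTNFtg library and 3.11-fold above the highest infliximab-treated one. The means were 5109 ± 1753 (SD, n = 3), 509.7 ± 486.6 (SD, n = 3) and 558.7 ± 497.6 (SD, n = 3), so that the WT mean was 10.02 times the untreated mean and 9.15 times the infliximab-treated mean. In both hTNFtg groups replicate 1 raised the mean, and without it the WT mean was 21.7 times the untreated and 17.2 times the infliximab-treated mean. The log2 fold change was -3.75 (standard error 0.62) between untreated hTNFtg and WT SFs, from -4.53 to -3.03 when any 1 library was left out.

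Penk, unlike Scg2, stayed far above the floor in hTNFtg SFs. It varied widely there, with a coefficient of variation of 95.5% in untreated and 89.1% in infliximab-treated SFs against 34.3% in WT SFs. In both hTNFtg groups replicate 1 was the highest and replicate 3 the lowest. WT did not show this order.

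Pcsk1 and Pcsk2, the convertases of the regulated pathway, were almost undetected. Pcsk1 (chr13:75089826-75132498, plus strand) was at 0 in all 3 WT libraries, at 0, 3 and 0 in untreated hTNFtg and at 6, 1 and 4 in infliximab-treated SFs, or 0, 3 to 4 and 11 to 12 reads per group. Against a floor of 3 reads over the WT group, the RPM from 11 reads in the infliximab-treated group was at least 4.18-fold higher. This bound covers neither the counting error of those 11 reads nor the spread between cultures, and infliximab-treated replicate 2 held 1 read. Pcsk2 (chr2:143546156-143816285, plus strand) was at 0 in all WT libraries, at 0, 1 and 1 in untreated and at 2, 1 and 0 in infliximab-treated SFs, 3 reads or fewer per group. Outside untreated hTNFtg replicate 1, where a 0 allows up to 18.7, neither convertase nor the chaperone gene Scg5 exceeded 6 normalized counts, while Penk stayed between 93 and 6877.

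Cpe was the only processing enzyme among the members with a high level, and its groups overlapped. The gene (ENSMUSG00000037852) lies at chr8:64592542-64693054 on the minus strand. Its normalized counts were 563, 961 and 1085 in WT, 722, 913 and 1915 in untreated hTNFtg and 854, 709 and 759 in infliximab-treated SFs. The means were 869.7 ± 272.7 (SD, n = 3), 1183 ± 640.8 (SD, n = 3) and 774 ± 73.7 (SD, n = 3). Untreated hTNFtg replicate 3 held the highest value. The log2 fold change between untreated hTNFtg and WT SFs was 0.37 (standard error 0.42), and it moved to -0.04 without that library.

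By the study's rule, which asks for P below 0.05 before adjustment and a change of 1 or more on the log2 scale, 2 of the 8 members with a value above 0 in the untreated hTNFtg and WT libraries were lower, namely Scg2 and Penk, against 3.04% of the 28522 genes fitted. The same 2 members did not overlap between the groups, against 5.8% of genes that did not overlap in that direction. The members were chosen on this contrast, so nothing is read from these shares.

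The comparison of infliximab-treated with untreated hTNFtg SFs asked whether blocking TNF for 48 hours moved these genes. It shares the untreated libraries with the comparison above. None of the 9 members tested passed the study's rule in limma, none had an unadjusted P under 0.05, and none passed the rule in edgeR's test on the recovered reads. The background was 1.49% of 28540 genes higher and 0.936% lower. The limma log2 fold change of Penk was 0.03 (adjusted p = 1, 95% interval -1.67 to 1.73, standard error 0.79), an interval that spans changes of more than 1 on the log2 scale in both directions. With any 1 library left out, the value for Penk ran from -0.74 to 1.02. The fit took the libraries as unpaired, although Penk had the same order of replicates in both groups. Pooled over the reads of each group, Penk was at 56.4 to 56.5 RPM in untreated and 118 RPM in infliximab-treated SFs. Pooling weights each library by its depth. The deepest untreated library, replicate 3 (9015557 reads), had the lowest normalized count of Penk in that group, 133. The shallowest, replicate 1 (613343 reads), had the highest, 1059. The pooled values thus depend on depth, while the group means were 509.7 and 558.7 normalized counts. The limma log2 fold change of Cpe was -0.49 (adjusted p = 0.803, 95% interval -1.27 to 0.30, standard error 0.36).

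Scg2 stayed near the floor, with an RPM 1.80 (exact 95% interval 0.456 to 8.36, 4 reads counted) or 2.39 times (0.546 to 14.3, 3 reads counted) as high in infliximab-treated as in untreated SFs. For Vgf the limma log2 fold change was 1.32 (95% interval -0.95 to 3.60, adjusted p = 0.803), from 0.28 to 2.01 with any 1 library left out. For Pcsk1 the limma adjusted p was 0.803, with 1 of 3 untreated and 3 of 3 treated libraries above 0. Without untreated hTNFtg replicate 2, the 1 untreated library with Pcsk1 reads, Pcsk1 passed the rule with a log2 fold change of 2.04. All of this rests on the few reads given above.

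The comparison of infliximab-treated hTNFtg with WT SFs shares the WT libraries with the first and is likewise a description for the members. The log2 fold change was -6.16 (standard error 0.62) for Scg2, -3.72 (standard error 0.72, from -4.50 to -2.73 with any 1 library left out) for Penk and -0.12 (standard error 0.25) for Cpe. By the rule, 2 of 9 members were lower, Scg2 and Penk, against 2.95% of 28243 genes, and 1 was higher, Pcsk1, against 3.86%. With a pseudocount of 5 in place of 1, Pcsk1 no longer passed.

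**Figure D2:**
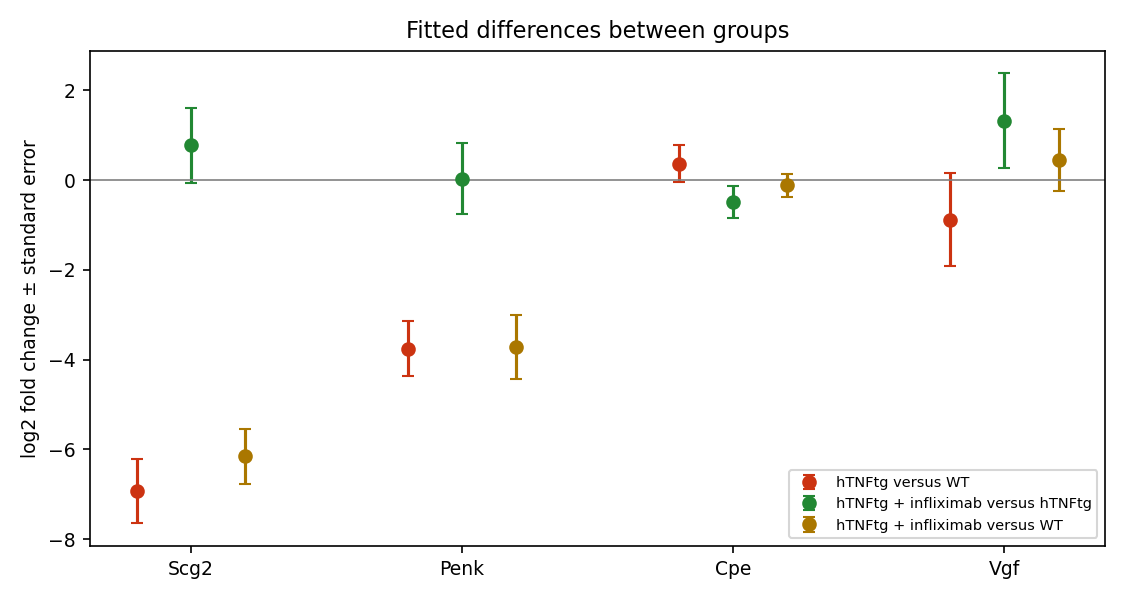
Fitted log2 fold change with its standard error (bars) for Scg2, Penk, Cpe and Vgf in the 3 comparisons, from limma on log2(normalized count + 1) with 3 libraries per group. Scg2 and Penk lie at -6.93 and -3.75 for untreated hTNFtg versus WT and at -6.16 and -3.72 for infliximab-treated hTNFtg versus WT, while all 4 genes lie between -0.49 and 1.32 for infliximab-treated versus untreated hTNFtg. Members with at most 12 reads in each group are not drawn.

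Markers of some other cell types moved with the groups. Fibroblast markers (11 genes, among them Col1a1 and Prg4) summed to 43181 to 53530 normalized counts in WT, 38766 to 46636 in untreated and 36539 to 42656 in infliximab-treated SFs. All 11 were detected in each group, and Col1a1 and Col1a2 made up most of the sum. In untreated hTNFtg against WT SFs 1 was higher and 1 lower by the rule, with a median log2 fold change of -0.30. Pdpn, the higher gene, was at 941, 982 and 852 in WT, 1987, 4695 and 5582 in untreated and 2862, 2460 and 2772 in infliximab-treated SFs. Lum, the lower gene, was at 284, 990 and 1158, at 193, 217 and 230, and at 254, 222 and 143 in the same order. The summed neuron and neuroendocrine list (15 genes) was low, at 181 to 245 in WT, 260 to 1057 in untreated and 333 to 533 in infliximab-treated SFs, and it consisted mostly of Tubb3 and Uchl1. In untreated hTNFtg against WT SFs 2 of its 13 tested genes were higher and 1 was lower by the rule, with a median log2 fold change of 0.00. Stmn2, a neuronal gene of the list picked after its values were seen, went against the sum, at 5, 75 and 63 in WT, 0, 8 and 13 in untreated and 15, 3 and 7 in infliximab-treated SFs. The catecholamine genes Th and Dbh were at 0 in all 9 libraries. The part of neural cells in the levels of Scg2 and Penk was not tested.

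Chondrocyte markers (9 of 10 listed genes in the tables, mostly Comp and Sox9) summed to 6232 to 9378 in WT, 554 to 1218 in untreated and 912 to 2533 in infliximab-treated SFs, and 4 of 8 tested were lower by the rule in untreated hTNFtg than in WT SFs. Comp made up most of the sum, and its reads cannot be told apart from those of the adjacent gene Crtc1. Sox9 was at 1160, 1761 and 1939 in WT and 174, 272 and 179 in untreated hTNFtg SFs, while the cartilage collagen gene Col2a1 overlapped, at 60, 51 and 94 against 75, 88 and 37. Macrophage markers (10 genes, led by Lyz2) went the other way, at 181 to 661, 3070 to 6295 and 2006 to 4103, with 7 of 10 higher in untreated hTNFtg SFs although CD45+ cells had been depleted. The chondrocyte and macrophage sums thus separated WT from hTNFtg libraries as Scg2 and Penk did, and so did the neuron and neuroendocrine sums given above. The chondrocyte sums were higher in WT, as Scg2 and Penk were, and the macrophage and neuron sums were lower in WT. The part of these cell types in the difference was not tested. Hepatocyte markers summed to 954 in infliximab-treated replicate 3 and to 19 to 67 in the other 8 libraries, mast cell markers to 3 or less, endothelial ones to 12 or less, T cell ones to 26 or less, Schwann cell ones to 86 to 198 and skeletal muscle ones to 17 to 84.

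**Figure D3:**
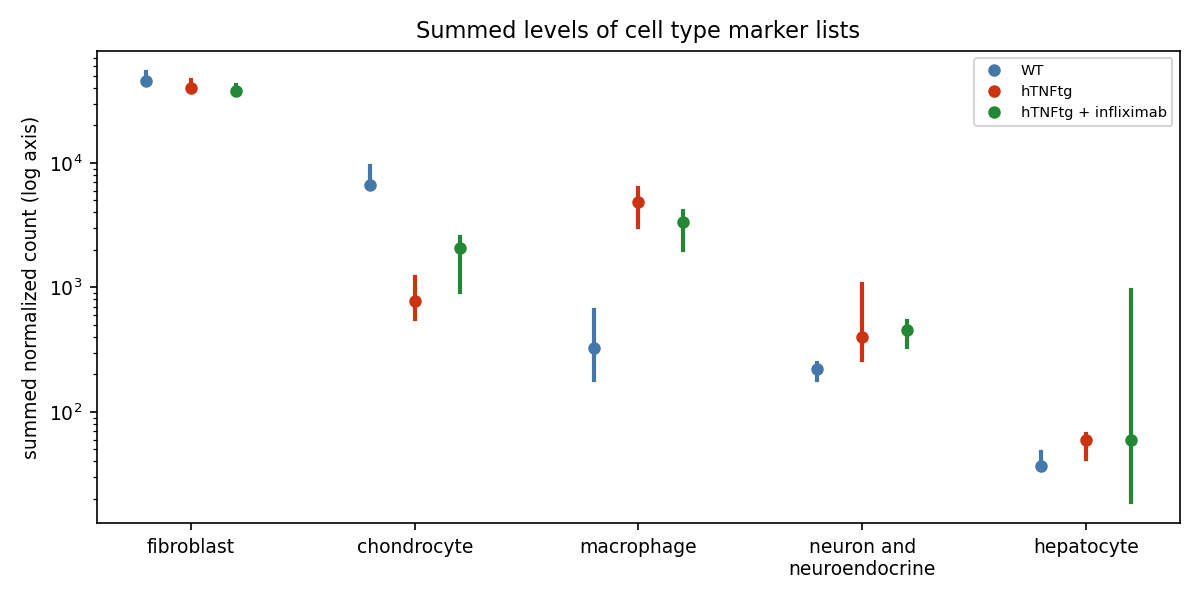
Summed normalized count of 5 marker lists on a log axis, with a dot at the median and a line from the lowest to the highest of the 3 libraries of each group. The fibroblast sums lie between 36539 and 53530 in all groups, the chondrocyte sums are highest in WT SFs, the macrophage sums are lowest in WT SFs, and infliximab-treated replicate 3 sets the top of the hepatocyte range at 954.

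The rest of the peptide pathway was described with 6 further lists, which were also drawn up with earlier results of these data known. Counts below are by the study's rule, and adjusted p-values are from limma over all genes tested. In untreated hTNFtg against WT SFs the background was 3.35% of genes higher and 3.04% lower. Some listed genes had the same values as an adjacent gene in every library, to within 10% or 3 normalized counts, so that the reads of the pair cannot be told apart. In this comparison the median log2 fold change was 0.19 for the processing enzymes, 0.25 for the vesicle genes, -0.15 for the precursors, -0.37 for the receptors, 0.05 for the peptidases and -0.17 for the transcription factors, beside 0.00 over all genes tested.

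Of 17 other convertases and processing enzymes tested, 0 were higher and 1 was lower. The lower gene was Pcsk6, which encodes the convertase PACE4, with normalized counts of 201, 372 and 297 in WT and 50, 111 and 170 in untreated hTNFtg SFs. Its log2 fold change was -1.51 (adjusted p = 0.234, standard error 0.44), and it was lost from the rule without WT replicate 2. In infliximab-treated SFs Pcsk6 was at 85, 107 and 56, lower than in WT SFs by 1.80 on the log2 scale (adjusted p = 0.0322, standard error 0.30). Pcsk4, a convertase known from germ cells, was at 49, 29 and 17 in WT, 106, 104 and 15 in untreated and 97, 69 and 74 in infliximab-treated SFs.

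Furin, Pam and Ctsb, whose products could act on precursors, were well expressed and did not pass the rule between untreated hTNFtg and WT SFs. Furin, the convertase of the constitutive pathway, was at 455 to 912 over the 9 libraries, and Pam, which amidates peptides, was at 585 to 1665. These 2 genes are named for their roles after their values were seen. The lysosomal protease gene Ctsb was at 1185 to 2404. For Aebp1, a carboxypeptidase-like gene, the values were nearly those of its neighbour Pold2, so no level of it can be given.

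Of 29 genes of dense core vesicle formation and release, 1 was higher and 0 were lower in untreated hTNFtg SFs. Ptprn, which encodes the vesicle membrane protein IA-2, was at 14, 12 and 15 in WT, 19, 54 and 137 in untreated and 33, 27 and 56 in infliximab-treated SFs. Its log2 fold change was 1.87 (adjusted p = 0.398, standard error 0.65), and it stayed past the rule in 2 of 6 fits with 1 library left out. The list's highest levels were those of Rab2a, a small GTPase of vesicle formation, at 891 to 1644, and of Vamp3, a vesicle SNARE, at 213 to 299.

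Of 23 other peptide precursors tested, 1 was higher and 3 were lower in untreated hTNFtg SFs. Npy, the neuropeptide Y precursor, was at 2, 1 and 1 in WT, 37, 27 and 41 in untreated and 17, 14 and 21 in infliximab-treated SFs. Every hTNFtg library stood above every WT library. The log2 fold change of Npy was 3.95 (adjusted p = 0.0394, standard error 0.72) in untreated and 2.98 (adjusted p = 0.0424, standard error 0.54) in infliximab-treated hTNFtg against WT SFs, the direction opposite to that of Penk and Scg2. As the WT values are at or below 3 reads, the size depends on the setting, and for untreated hTNFtg against WT SFs it ran from 2.65 with a pseudocount of 5 to 4.79 in edgeR.

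The lower genes were Apln, Agt and Calca. Apln, the apelin precursor, was at 163, 134 and 106 in WT and 62, 86 and 22 in untreated hTNFtg SFs (log2 fold change -1.41, adjusted p = 0.363), and it passed the rule in 3 of 6 fits with 1 library left out. Agt, the angiotensinogen gene, was at 13, 5 and 19 against 6, 0 and 0, which overlapped, and it passed in 2 of 6 such fits. The 6 of Agt, in untreated hTNFtg replicate 1, is 1 read. Calca, the calcitonin and CGRP gene, lay just under the mean of 10 set for naming and was picked after its values were seen, which were 10, 44 and 32 in WT, 0, 0 and 1 in untreated and 1, 1 and 0 in infliximab-treated SFs. Its log2 fold change was -4.33 (adjusted p = 0.0641, standard error 0.88) in untreated hTNFtg against WT SFs. Over the other settings the value ran from -5.41 to -2.50. The 0 of Calca in untreated hTNFtg replicate 1 allows up to 18.7, which is above the lowest WT value. Adm, the adrenomedullin precursor, had the highest level of the list, at 7312, 5177 and 7480 in WT, 12095, 10117 and 4196 in untreated and 12642, 5370 and 2790 in infliximab-treated SFs, which overlapped. Gnas, listed as the host gene of the granin-like protein NESP55, was at 758 to 2192, and these reads do not separate its products.

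Of 17 receptors tested, 2 were higher and 4 were lower in untreated hTNFtg SFs. Ackr3, an atypical chemokine receptor that also binds opioid peptides, was at 70, 26 and 45 in WT, 206, 161 and 107 in untreated and 171, 183 and 97 in infliximab-treated SFs, a log2 fold change of 1.79 (adjusted p = 0.118, standard error 0.42) between the first pair. Npy1r, a receptor of neuropeptide Y, was at 11, 6 and 12 in WT, 25, 42 and 44 in untreated and 20, 21 and 19 in infliximab-treated SFs (log2 fold change 1.84, adjusted p = 0.275). Both the ligand gene Npy and this receptor were thus above WT in all hTNFtg libraries.

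Npr3, the clearance receptor of natriuretic peptides, was at 269, 332 and 459 in WT, 87, 101 and 132 in untreated and 172, 124 and 165 in infliximab-treated SFs. Its log2 fold change was -1.70 (adjusted p = 0.0448, standard error 0.32) between untreated hTNFtg and WT SFs. The endothelin receptor gene Ednrb was at 47, 33 and 3 in WT and 0, 0 and 5 in untreated hTNFtg SFs, and it passed the rule in 2 of 6 fits with 1 library left out. The other endothelin receptor gene, Ednra, was at 61, 69 and 47 against 19, 8 and 25, with nearly the same values as an adjacent unclassified transcript. The fourth lower gene was Ramp1, a subunit of the CGRP receptor, at 8, 12 and 13 against 0, 3 and 4 (log2 fold change -2.12, adjusted p = 0.584), which passed the rule in 3 of 6 such fits. For Ramp1 and Ednrb the 0 in untreated hTNFtg replicate 1 allows up to 18.7. That is above every WT value of Ramp1 and the lowest WT value of Ednrb. Oprm1, the mu opioid receptor, was listed at 480 to 1097, but the adjacent pseudogene Gm15536 had the same values to within 2 in every library, so no level of the receptor can be given.

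Of 13 peptidases that break down neuropeptides, 0 were higher and 1 was lower in untreated hTNFtg SFs. Anpep, the aminopeptidase N gene, was at 25, 51 and 82 in WT, 0, 9 and 12 in untreated and 15, 12 and 10 in infliximab-treated SFs, a log2 fold change of -3.25 (adjusted p = 0.242, standard error 0.95) between the first pair. It moved to -2.08 without untreated hTNFtg replicate 1, the shallow library listed at 0, and was lost from the rule without WT replicate 3. Mme, which encodes neprilysin, an enzyme that cuts enkephalins, was at 72, 118 and 154 in WT, 100, 67 and 20 in untreated and 52, 76 and 32 in infliximab-treated SFs. It did not pass the rule in untreated hTNFtg SFs, where its log2 fold change against WT was -1.07 (adjusted p = 0.722). The value ran from -1.55 to -0.41 with any 1 library left out, and Mme did pass with robust moderation and in edgeR. In infliximab-treated SFs Mme was lower than WT by 1.11 on the log2 scale (adjusted p = 0.250, standard error 0.37). That call was kept in 2 of 6 fits with 1 library left out. Lnpep, the oxytocinase gene, was higher in infliximab-treated than in WT SFs, with a log2 fold change of 1.56 (adjusted p = 0.252), also kept in 2 of 6. Ece1, the endothelin-converting enzyme gene, at 645 to 882, and Prep, the prolyl endopeptidase gene, at 124 to 409, had the highest levels of the list and did not pass in these comparisons.

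Of 13 transcription factors and cofactors that act on these genes in neuroendocrine cells, 0 were higher and 1 was lower in untreated hTNFtg SFs. The lower gene was Crtc1, a coactivator of CREB, but its values differed by 17 at most from those of the adjacent cartilage gene Comp, 293 to 7297 over the libraries, so no level of Crtc1 can be given. Creb1, which encodes the factor that binds the cAMP response element, was at 160, 196 and 128 in WT, 87, 146 and 178 in untreated and 177, 151 and 165 in infliximab-treated SFs, with a log2 fold change of -0.27 (95% interval -1.03 to 0.49, adjusted p = 0.752) in untreated hTNFtg against WT SFs.

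**Figure D4:**
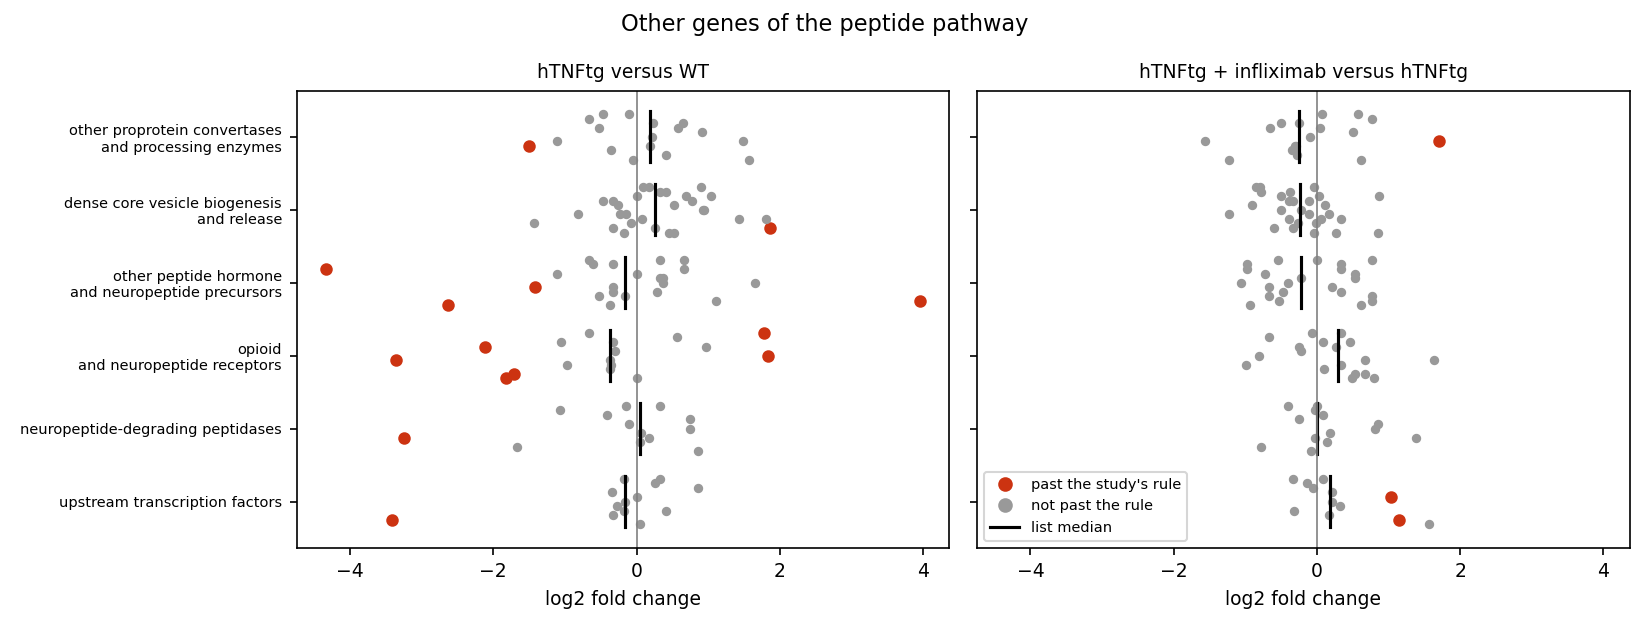
Limma log2 fold change of each tested gene of the 6 pathway lists, for untreated hTNFtg versus WT SFs on the left and infliximab-treated versus untreated hTNFtg SFs on the right, with genes past the study's rule in red and a black line at each list's median. On the left 14 points pass the rule, with Npy farthest to the right at 3.95 and Calca farthest to the left at -4.33. On the right 3 points pass, 1 of them Crtc1, whose reads cannot be told apart from those of Comp.

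In infliximab-treated compared with untreated hTNFtg SFs, the rule put 3 of 111 tested list genes higher and 0 lower, beside 1.49% and 0.936% of all genes. Among 28 vesicle genes, 23 precursors, 18 receptors and 13 peptidases, 0 passed the rule in limma. At an unadjusted P under 0.05 there were 1, 0, 1 and 1 genes, and edgeR's test on the recovered reads put 0, 1, 0 and 1 past the rule. The precursor and receptor genes called higher in untreated hTNFtg than in WT SFs were Npy, Npy1r and Ackr3. Their limma log2 fold changes with infliximab were -0.97 (95% interval -2.03 to 0.09), -0.81 (-1.84 to 0.21) and -0.07 (-0.83 to 0.68). Of 17 processing enzymes 1 passed, the carboxypeptidase gene Cpz, a call that edgeR's test did not make. Of 12 transcription factors 2 passed, Crtc1 and Rcor2, and edgeR's test also put 2 of the list past the rule. Rcor2, a corepressor of the REST family of complexes, was at 62, 171 and 98 in untreated and 231, 216 and 184 in infliximab-treated SFs (log2 fold change 1.04, standard error 0.36, adjusted p = 0.803), and Rcor2 was lost from the rule in edgeR's test and in 3 of 6 fits with 1 library left out. The median log2 fold changes of the lists were -0.25 for processing enzymes, -0.24 for vesicle genes, -0.23 for precursors, 0.30 for receptors, 0.00 for peptidases and 0.18 for transcription factors, beside 0.00 over all genes tested.

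The genes most like Scg2, Penk and Cpe were looked up by Pearson's r of log2(normalized count + 1) over the 9 libraries among 13600 genes with a mean of at least 10. The 9 points fall into 3 groups of 3, so r mostly follows the group means, and it is a description. Most like Scg2 were Clu (r = 0.990), Islr (0.978) and Limch1 (0.978). Clu, which encodes the secreted chaperone clusterin, was at 189, 142 and 302 in WT, 19, 25 and 13 in untreated and 32, 33 and 16 in infliximab-treated SFs. Penk had r = 0.880 with Scg2.

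Most like Penk were Egfl6 (r = 0.977), Atp1b1 (0.972) and Sfrp2 (0.969). Sfrp2, a secreted Wnt modulator of fibroblasts, was at 2632, 2500 and 4053 in WT, 542, 185 and 44 in untreated and 550, 425 and 119 in infliximab-treated SFs, with replicate 3 lowest in both hTNFtg groups, as for Penk. Cpe had r = -0.31 with Penk and -0.16 with Scg2, and its nearest genes, Tmem183a (0.991), Ndufb7 (0.983) and Mtif3 (0.974), share its small range, in which untreated hTNFtg replicate 3 is the highest library.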

How the data were processed

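RNA of 9 libraries was sequenced with the QuantSeq 3′ mRNA kit on an Ion Proton. Per the study's methods, the authors mapped reads to mm10 with TopHat2 and then Bowtie2, counted reads per gene with GenomicRanges, normalized the counts by a method not given in the sources used here and tested with DESeq. The tables are named for metaseqR. All values used are normalized counts that the authors deposited rounded to whole numbers. For 8 libraries the values deposited by the authors, scaled and rounded, are taken as a score, from which approximate reads were estimated for the RPM values and edgeR. In hTNFtg replicate 1, where 1 read is worth 6.23 normalized counts, the deposited signal shows whole reads directly, as multiples of 1 step before rounding (99.9% of values given back). The 12 deposited per-sample columns of another normalization were not used. The deposited p-values, false discovery rates and fold changes of the authors' own comparisons were not used either.

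The 2 tables were joined by gene identifier. What 1 read is worth was estimated per library from the spacing of values, which gave approximate reads. The estimate was tested on simulated data. Group differences were fitted with limma 3.58.1 (R 4.3.3; trend) on log2(normalized count + 1), over genes with a value above 0 in any of the 6 libraries of a comparison, with Benjamini-Hochberg adjustment over all of them. The call used is the study's rule. Labels give replicate numbers and serial library names, which run consecutively within each group. The methods state 3 biological replicates per group. P-values measure the spread between these libraries. edgeR 4.0.16 on the approximate reads was 1 alternative. Others were the pseudocount, a filter on low values, normalization, library weights, robust moderation, a replicate block, 1 fit of all libraries and leaving out each library. Sequences are from RefSeq promoters and the GENCODE annotation of GRCm38. Penk, Cpe and Vgf had no promoter entry.

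The members and all lists were chosen with earlier results of these data known. In the other lists the genes named had a mean of at least 10 and passed the rule in any comparison (at most 4 per list, by size of change), or were the 2 highest by mean. Calca, Agt, Ramp1, Cpz, Furin, Pam, Stmn2, Sox9, Col2a1, Pdpn and Lum lie outside this rule and were picked after their values were seen.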

Additional observations from a re-analysis of the deposited data

How the results depend on the processing

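Scg2 and Penk kept their direction and stayed past the rule against WT under every alternative and with any 1 library left out, in untreated and in infliximab-treated hTNFtg SFs. The number of members past the rule was 2 (2 to 3 over the alternatives) for untreated hTNFtg versus WT, 3 (2 to 4) for infliximab-treated hTNFtg versus WT, and 0 for infliximab-treated versus untreated hTNFtg, where leaving out 1 library gave 0 to 1, the 1 being Pcsk1 without untreated hTNFtg replicate 2. Calls over all genes moved more. For untreated hTNFtg versus WT, 1823 genes past the rule became 1183 with a mean of at least 10 and 3540 with array quality weights. For infliximab-treated versus untreated hTNFtg, 693 became 351 with a pseudocount of 5, 314 with a mean of at least 10, 2125 with array quality weights, 1229 with edgeR, and 418 to 1411 with 1 library left out (418 without infliximab-treated replicate 2, 1411 without untreated replicate 1, the shallowest). For infliximab-treated hTNFtg versus WT, 1923 became 1057 with a pseudocount of 5 and 1056 with a mean of at least 10. The filter tests fewer genes, and for the others the cause was not tested. After adjustment, infliximab-treated versus untreated hTNFtg had 0 genes in limma (1026 at an unadjusted P under 0.05), against 67 higher and 98 lower in edgeR, 17 and 48 with array quality weights, and 3 lower each with robust moderation and with 1 fit of all libraries. Same-numbered libraries did not deviate together in every pair (correlations -0.147 to 0.353 over the 3 comparisons). Between infliximab-treated and untreated hTNFtg libraries, however, the same-numbered correlations were all positive, at 0.070, 0.197 and 0.265. Those of differently numbered libraries ran from -0.256 to 0.126. The labels do not state a pairing of these cultures, so the main fits were unpaired, and whether the cultures were paired was not settled. With a replicate block, 1659, 605 and 1698 genes passed the rule in the 3 comparisons, member counts stayed at 2, 0 and 3, and no gene passed after adjustment in any of them (137, 0 and 209 without the block). No called value of a member or of a list gene named by the rule above changed sign, and the other called genes were not checked for this. Depth limits Pcsk1, Pcsk2, Scg3, Scg5, Chga and Chgb throughout, and untreated hTNFtg replicate 1 for all low genes.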
